A study of Mus musculus with 14 samples.

Results

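The genes described here are 38 ligands and antagonists of the TGF-beta superfamily, and the measurement is where the deposited list of H3K27me3 sites lay over them. The genes were listed by name, with earlier results of these data known, and comprised 32 ligands and 6 antagonists out of 21938 protein-coding genes. Sites were assigned to a gene when they overlapped its gene region, which is the gene body together with 1 kb on either side of every annotated transcription start site (TSS). Of the 153983 sites in the list, 98 overlapped the region of a member. The list gives the chromosome, start and end of each site and no value per library.

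H3K27me3 ChIP-seq was carried out on immortalised mouse embryo fibroblasts (iMEF) of the NG3 clone, in 12 libraries of 6 groups with 2 replicates each. The groups were control cells and cells exposed to dTAG-13 for 30 min, 2 h, 4 h, 8 h or 16 h, and there were 2 input libraries, for the control and the 16 h treatment. All groups lacked functional endogenous Ash2l, because the floxed alleles had been recombined by an inducible Cre-ER, and all carried a lentiviral FKBP-HA2-ASH2L fusion, which the PROTAC dTAG-13 directs to degradation. NG3 is 1 clone, the sites of all 12 libraries stand in 1 list, and the depth behind a site is not given, so that control and treated cells were not compared and a missing site does not show that the mark was absent.

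BMPs, GDFs, activins, Nodal and the TGF-betas are secreted as dimers and bind pairs of type I and type II serine/threonine kinase receptors, which phosphorylate SMAD proteins. Antagonists such as Noggin and Gremlin bind ligands outside the cell, and fibroblasts are known to respond to TGF-beta with the synthesis of matrix. H3K27me3 is set by Polycomb repressive complex 2 and is known for covering promoters of developmental genes that a cell does not use, often in broad stretches.

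H3K27me3 sites lay at the TSSs of many of these genes, and coverage differed between the subfamilies. Most BMP genes, Gdf6, Gdf7, Gdf10, Nodal, Lefty2 and the liver activin genes had broad sites, while the 3 TGF-beta genes had at most 1 narrow site. In total, 27 of the 38 members, or 71.1% (95% Wilson interval 55.2 to 83%, counting of genes only), had a site somewhere over the gene region, compared with 48% of all protein-coding genes, and 11 had none. A site reached within 1 kb of a TSS in 24 members, or 63.2% (47.3 to 76.6%), compared with 31.5% of all genes. A site of at least 2 kb did so in 16 members, or 42.1% (27.9 to 57.8%), against 16.1% of all genes. The 5′ end of the gene lay inside a site in 15 members, or 39.5% (25.6 to 55.3%), against 16.9%. At least 50% of the gene region was covered in 9 members, or 23.7% (13 to 39.2%), against 9.28%. These are counts within 1 list, and no test was made of the differences from all genes.

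Over the members, the median covered share of the gene region was 11.6%, whereas the median over all protein-coding genes was 0%. The median of the widest site per member was 1341 bp, with members lacking a site taken as 0, and the median over all genes was 0 bp. The regions of the members were shorter, with a median of 8.92 kb against 18.4 kb, which matters for a share of length. Pooled over all bases, sites covered 16.8% of the members' regions and 6.98% of the regions of all genes. The flanks of 10 kb on either side of the genes had a median covered share of 4.95% for the members and 1.51% for all genes.

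**Figure D1:**
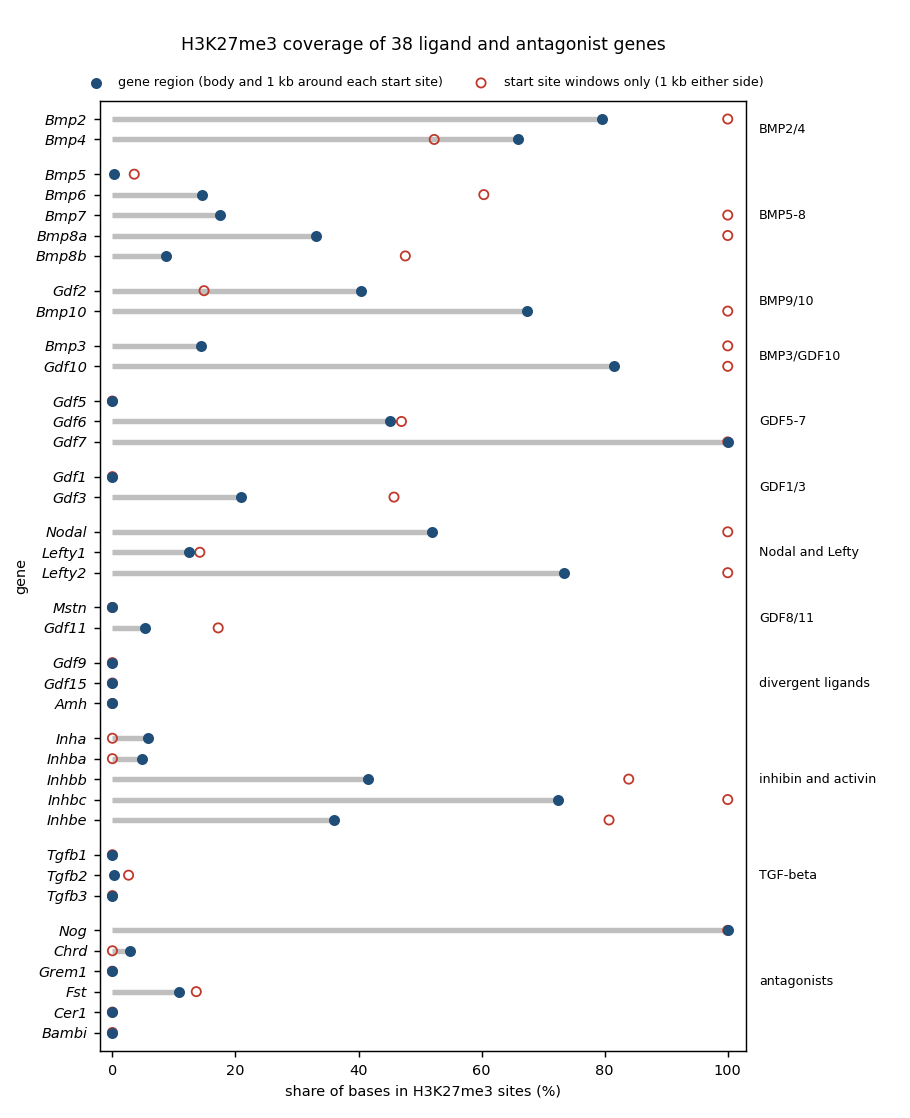
Covered share of the gene region for each of the 38 members in percent, by subfamily, with 1 row per gene. Gdf7 and Nog reach 100%, and the genes at 0% include Tgfb1, Tgfb3, Mstn and the divergent ligands.

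The promoters of 6 members are shown to set the most covered members beside those farthest from a site, among the 20 members in the RefSeq promoter table with no annotated UTR in these bases. The sequences are the 250 bases before the TSS from the RefSeq table of GRCm38.p6, written 5′ to 3′ on the strand of the gene, and capitals mark CpG dinucleotides. Gdf7, Gdf10 and Inhbc are the covered ones, with 100% of the TSS windows in sites.
Gdf7 (chr12:8301955-8302204, minus strand): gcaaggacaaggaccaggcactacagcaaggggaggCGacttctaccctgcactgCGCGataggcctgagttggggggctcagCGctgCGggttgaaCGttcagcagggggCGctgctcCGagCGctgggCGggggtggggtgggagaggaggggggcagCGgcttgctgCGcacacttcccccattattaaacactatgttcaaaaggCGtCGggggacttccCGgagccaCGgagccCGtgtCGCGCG
Gdf10 (chr14:33923337-33923586, plus strand): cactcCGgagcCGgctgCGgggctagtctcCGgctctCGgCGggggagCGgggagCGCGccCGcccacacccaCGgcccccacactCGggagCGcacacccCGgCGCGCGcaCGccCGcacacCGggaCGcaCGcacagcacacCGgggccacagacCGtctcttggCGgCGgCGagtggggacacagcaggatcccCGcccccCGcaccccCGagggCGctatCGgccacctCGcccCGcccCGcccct
Inhbc (chr10:127370549-127370798, minus strand): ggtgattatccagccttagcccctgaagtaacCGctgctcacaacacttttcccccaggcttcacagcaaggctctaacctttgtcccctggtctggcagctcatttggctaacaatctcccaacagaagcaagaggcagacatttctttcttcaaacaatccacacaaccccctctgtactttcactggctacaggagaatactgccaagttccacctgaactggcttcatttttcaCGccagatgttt
Grem1, Mstn and Tgfb1 had no site over the gene region.
Grem1 (chr2:113758649-113758898, minus strand): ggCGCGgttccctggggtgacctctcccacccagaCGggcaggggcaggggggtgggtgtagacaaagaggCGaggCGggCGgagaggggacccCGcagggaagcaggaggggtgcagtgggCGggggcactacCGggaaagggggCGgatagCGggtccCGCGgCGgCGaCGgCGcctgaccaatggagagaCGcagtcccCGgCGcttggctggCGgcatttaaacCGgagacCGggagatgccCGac
Mstn (chr1:53061390-53061639, plus strand): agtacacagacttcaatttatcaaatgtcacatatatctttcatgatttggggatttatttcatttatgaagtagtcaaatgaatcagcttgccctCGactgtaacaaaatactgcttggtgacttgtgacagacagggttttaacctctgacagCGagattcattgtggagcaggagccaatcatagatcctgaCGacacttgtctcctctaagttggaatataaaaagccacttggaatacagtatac
Tgfb1 (chr7:25686752-25687001, plus strand): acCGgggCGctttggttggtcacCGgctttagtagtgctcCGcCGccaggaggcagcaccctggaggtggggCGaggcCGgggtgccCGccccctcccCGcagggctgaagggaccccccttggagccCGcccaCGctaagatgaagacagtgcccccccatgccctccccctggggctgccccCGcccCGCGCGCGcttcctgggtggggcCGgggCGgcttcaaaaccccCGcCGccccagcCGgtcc
Both sets held CpG-dense and CpG-poor promoters. Gdf10 had 35 CpG and Gdf7 had 20, but Inhbc, whose RefSeq TSS was 117 bp from the 5′ end of the annotation, had 2. Among those without a site, Grem1 had 24 CpG, Tgfb1 had 21 and Mstn had 3.

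Bmp2 and Bmp4, which pattern the early embryo and promote bone formation, had 74.0% of their pooled regions in sites, the highest share of the 12 subfamilies. Bmp2 had 5 sites, the widest of 5819 bp at chromosome 2, 133550334 to 133556152 (GRCm38). This site included the 5′ end and 2 of the 3 exons, and the sites together covered 79.6% of the region and 100% of the TSS windows. The stretch around Bmp2 was rich in sites as well, which took up 74.5% of the 10 kb flanks. Bmp4 differed from Bmp2 in the position of its sites. It had 3 sites, the widest of 2909 bp at chromosome 14, 46387235 to 46390143, which started 525 bp downstream of the 5′ end. They covered 65.9% of the region and 52.3% of the TSS windows, but only 8.10% of the flanks.

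In the group of Bmp5 to Bmp8b, which act in the skeleton, kidney, iron metabolism and germ cells, all 5 genes had a site near a TSS, although 11.8% of the pooled regions was covered. The widest site of the group was at Bmp7, a gene needed for kidney and eye development. It measured 13744 bp at chromosome 2, 172929694 to 172943437, contained the first exon, and with 3 further sites covered 17.5% of the long region and 100% of the window. Bmp6, known as a regulator of hepcidin and iron, had 26 sites, more than any other member, over a region of 156.2 kb of which 14.6% was covered. The site at its TSS was 4315 bp wide, and the windows were covered to 60.4%. Its widest site, 5055 bp at chromosome 13, 38487144 to 38492198, lay 142037 bp into the gene and held no exon. The coding sequence of Bmp6 was covered to 77.8%, well above the share of the region.

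Bmp8a and Bmp8b are closely related copies with roles in germ cells and brown fat, and how reads that match both were treated was not tested. Bmp8a had 3 sites, 33.1% of the region and 100% of the window covered. Its widest site, 6229 bp at chromosome 4, 123321687 to 123327915, also overlapped Oxct2a, a gene inside the Bmp8a region, while the site at the TSS was 3746 bp wide. Bmp8b had 3 sites of at most 1939 bp, just under the 2 kb limit, and 8.73% of its region was covered. Joining sites closer than 1 kb took its widest to 6514 bp. Bmp5, which shapes cartilage of the ear, had a single site of 243 bp.

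Gdf2, which encodes BMP9 made in the liver, and Bmp10, made in the heart, bind the endothelial receptor ALK1. Bmp10 was covered from its upstream flank into the gene. Its widest site of 8682 bp at chromosome 6, 87422408 to 87431089, contained the 5′ end, 4 sites covered 67.4% of the region and 100% of the window, and the flanks were covered to 90.9%, the highest value of all members. Gdf2 had 40.5% of its region covered by 2 sites, mainly by 1 of 3030 bp over its second exon at chromosome 14, 33944600 to 33947629. Near its TSS there was only a site of 298 bp, and 14.9% of the window was covered.

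Bmp3 and Gdf10, also named BMP3B, encode related factors, and BMP3 is known as an antagonist of bone-forming BMPs. Gdf10 had the widest site of all 38 members, 20346 bp at chromosome 14, 33912589 to 33932934. It spanned the 5′ end and 2 of the 3 exons, and with 3 more sites covered 81.5% of the region. The site at Bmp3 was narrower, with 4341 bp at chromosome 5, 98852637 to 98856977. It covered the whole TSS window, but since the region of Bmp3 is 30.98 kb long, all 4 sites covered 14.4% of it, and the flanks were covered to 3.89%.

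Gdf5, Gdf6 and Gdf7 act in joints, and GDF7 is also known from the roof plate of the neural tube. The 3 genes spanned the whole range of coverage. Gdf7 lay entirely within 1 site of 10062 bp at chromosome 12, 8296617 to 8306678, so that 100% of its region was covered. Gdf6 had 5 sites that covered 45.2% of the region and none in the flanks. The widest, 3596 bp at chromosome 4, 9844433 to 9848028, started 60 bp downstream of the 5′ end. Gdf5 had no site, and the nearest was 4.17 kb from the TSS.

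**Figure D2:**
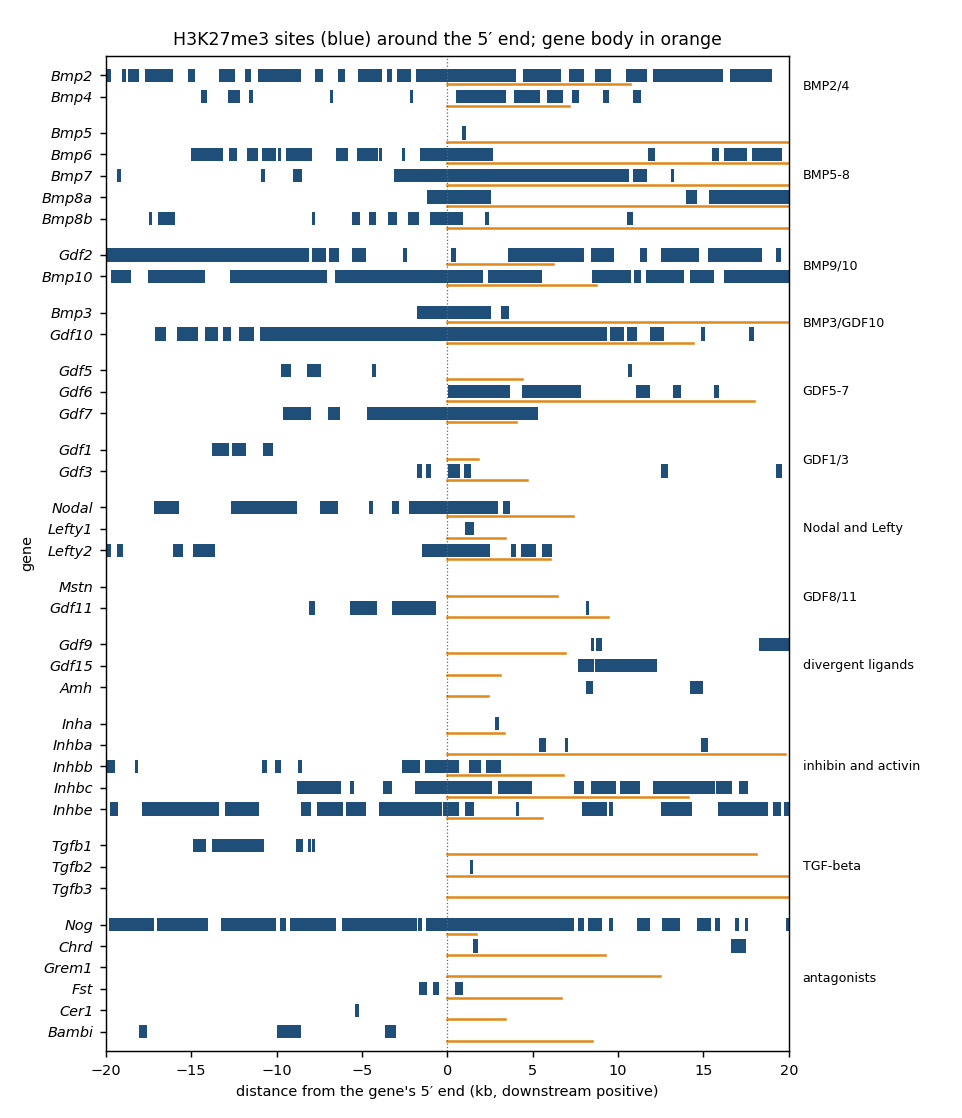
H3K27me3 sites (blue) and gene bodies (orange) within 20 kb of the 5′ end of each member, drawn in the direction of transcription, with distance in kb. Broad sites extend over the 5′ end in Bmp2, Bmp7, Bmp10, Gdf10, Gdf7 and Nog, start downstream of it in Bmp4 and Gdf6, and are missing within 20 kb at Mstn, Tgfb3 and Grem1.

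Nodal, which induces mesoderm and sets the left-right axis, had 2 sites, the wider of 5225 bp at chromosome 10, 61415710 to 61420934. They covered 51.9% of the region and 100% of the window, but 18.5% of the coding sequence. Lefty1 and Lefty2 encode inhibitors of Nodal, and are closely related neighbours. Lefty2 had 4 sites with 73.4% of the region covered, the widest of 4002 bp at chromosome 1, 180891609 to 180895610 with 3 of 4 exons. Lefty1, which starts 35.9 kb after the end of Lefty2, had a single site of 547 bp in 12.5% of its region. Of GDF1 and GDF3, which form dimers with Nodal, Gdf3 had 3 sites of at most 743 bp that covered 20.8% of the region, and Gdf1, which overlaps Cers1 and Upf1, had none.

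Activins are dimers of inhibin beta chains, and inhibins contain the alpha chain. All 5 genes had a site, and 32.6% of their pooled regions was covered. Inhbc and Inhbe, which are mainly expressed in liver, lie 1.91 kb apart on chromosome 10 and shared a site of 3654 bp at 127354736 to 127358389. Inhbc had 6 sites that covered 72.4% of the region, all of the window and all exons, the widest of 4507 bp at 127367800 to 127372306. In Inhbe, 4 sites covered 35.9% of the region and 80.7% of the window. The shared site was its widest but contained none of its exons.

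The other inhibin and activin genes had narrower sites. Inhbb, which encodes the chain of activin B, had 3 sites of at most 1970 bp, again just under 2 kb, although 83.9% of its window was covered. With sites closer than 1 kb joined, the widest at Inhbb was 5775 bp. Inhba, the gene for the chain of activin A, had 3 sites of at most 405 bp, none within 1 kb of a TSS, and 4.73% of its region was covered. They covered 55.3% of the coding sequence. Inha had 1 site of 247 bp downstream of the window.

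The remaining ligands had few sites or none. Gdf11, which patterns the trunk axis, had 2 sites, the wider of 2568 bp at chromosome 10, 128892375 to 128894942. It lay 656 bp upstream of the TSS, and of the 17 members past the 2 kb limit Gdf11 had the narrowest widest site. Only 5.22% of the region, 17.2% of the window and none of the coding sequence were covered. Mstn, the gene for the inhibitor of muscle growth myostatin, had no site, with the nearest at 35.5 kb. The divergent ligands Gdf9 of the oocyte, Gdf15 of the stress response and Amh of the gonads also had no site, with the nearest at 8.41, 7.64 and 8.13 kb from the TSS.

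The genes for the 3 TGF-betas, which drive matrix synthesis and wound repair, were almost free of sites. Together 0.160% of their regions was covered. Tgfb2 had 1 site of 203 bp, and Tgfb1 and Tgfb3 had none, with the nearest at 7.75 kb and 89.3 kb. Of their promoters, Tgfb1 and Tgfb3 were CpG-rich by the definition used below and Tgfb2 was not.

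Among the antagonists, Nog stood out. It encodes Noggin, which sequesters BMPs, and its only exon lay within a site of 8685 bp at chromosome 11, 89294909 to 89303593. The region was covered to 100% and the flanks to 83.7%. Nog is also annotated on a second sequence of the assembly, as the only member, and the values here are those of the chromosome. The other 5 antagonists had narrow sites or none. Chrd, for the BMP-binding Chordin, had 1 site of 287 bp outside the windows, and Fst, for the activin-binding Follistatin, had 2 sites of at most 479 bp that covered no exon. Grem1, for the BMP antagonist Gremlin, had no site within 92.7 kb of the TSS, the largest distance of all members. Cer1, for a secreted inhibitor of Nodal and BMPs, and Bambi, a membrane-bound pseudoreceptor and thus not a secreted antagonist, had their nearest sites at 5.19 and 3.02 kb.

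By subfamily, the pooled covered share ranged from 74.0% for Bmp2 and Bmp4 to 0% for Gdf9, Gdf15 and Amh. It reached at least 50% in 3 of 12 subfamilies, of which the others were Gdf2 with Bmp10 (56.0%) and Nodal with the Leftys (50.8%). The values for Gdf5 to Gdf7 (46.4%), Bmp3 with Gdf10 (36.7%) and the inhibin and activin chains (32.6%) followed. They were 14.0% for Gdf1 with Gdf3, 7.93% for the antagonists and 3.05% for Mstn with Gdf11. As a subfamily has 2 to 6 genes that often differed widely, this order is a description.

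The sites over the members were wider than the sites of the list at large. Their median width was 655 bp, compared with 455 bp, and 24 of the 98 were at least 2 kb wide (24.5% against 11.3% of all). At least 5 kb was reached by 9 sites (9.18% against 3.30%). The list at large includes sites outside gene regions, and a wide site overlaps a region more readily than a narrow one. The comparison therefore does not set the members apart from other genes, and 26 of the 98 sites were at Bmp6. In 20 members the covered share of the region was higher than that of the 10 kb flanks, and in 7 members with a site it was lower. How often this holds over all genes was not counted, so it is not shown to be particular to the members. The 7 included Gdf2, Bmp10 and Inhbe, which lay in stretches with many sites, while Lefty2, Bmp4, Gdf6 and Bmp8a were covered with little H3K27me3 in the flanks. Inside the genes, coding sequence was covered more than the region as a whole. Of the 27 members with a site, 19 had a higher share in the coding sequence (70.4%), as had 56.4% of all 10534 genes with a site. The coding sequence was wholly covered in Bmp2, Bmp10, Gdf10, Gdf7, Lefty2, Inhbc and Nog. These were 7 of the 27 members with a site, compared with 1152 of the 10534 genes with a site.

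Some members are neighbours on a chromosome. Of the 4 pairs within 250 kb, only Inhbe and Inhbc shared a site, and 97.5% of the interval between them was covered. Between Gdf10 and Gdf2, 3.06 kb apart, 7.95% was covered, so that the broad site of Gdf10 did not extend to Gdf2. When sites closer than 5 kb were joined, however, both genes lay in 1 stretch of 86796 bp. The interval from Lefty2 to Lefty1 was covered to 0.390%. In contrast, 58.4% of the 181 kb between Bmp8b and Bmp8a was covered by 35 sites, more than the region of either gene.

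**Figure D3:**
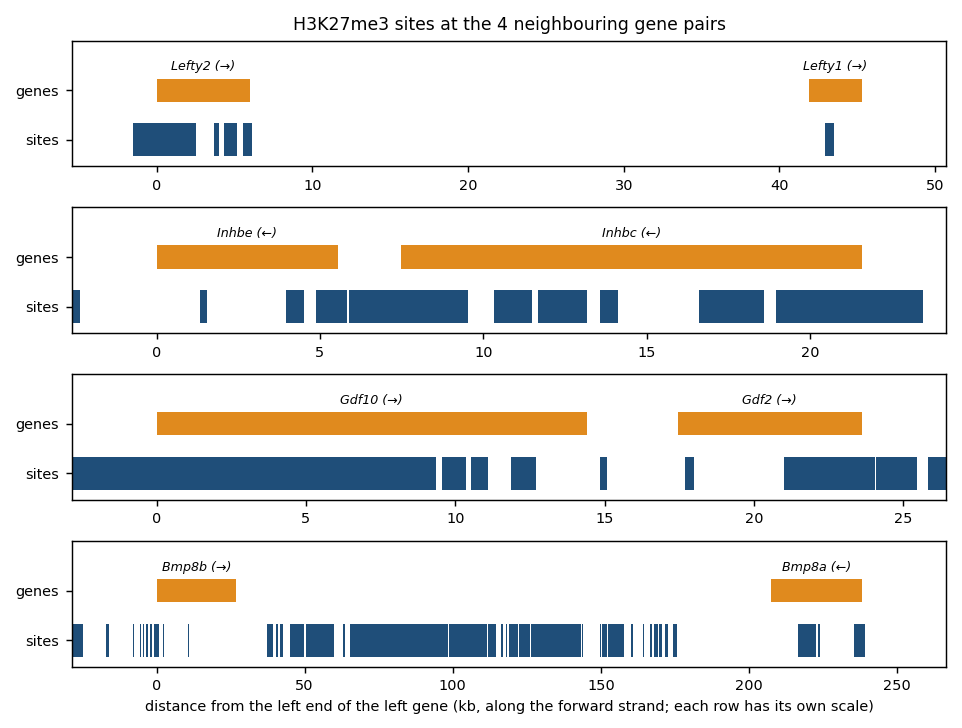
Sites (blue) and gene bodies (orange, arrows give the strand) at the 4 pairs of neighbouring members, with distance in kb on a scale of its own in each row. The sites run through the interval in Inhbe and Inhbc, and between Bmp8b and Bmp8a they lie mostly outside both genes.

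Base composition at the promoter was compared with the presence of sites, because Polycomb domains are known to form at CpG islands. CpG-rich promoters were those with at least 50% GC and an observed to expected CpG ratio no lower than 0.6 within 500 bp of the 5′ end. This held for 18 of 38 members (47.4%), compared with 44.4% of all genes. A site of at least 2 kb lay at the TSS of 9 of the 18 CpG-rich members, against 14.3% of all CpG-rich genes. It did so in 7 of the other 20 members, against 17.5% of all other genes. Broad sites thus occurred at members of both classes, for example at CpG-rich Nog, Gdf10 and Bmp7 and at CpG-poorer Bmp10, Nodal and Lefty2. CpG-rich promoters without any site in the window were those of Tgfb1, Tgfb3, Grem1, Gdf9, Chrd and Bambi. Of the 24 members with an entry in the RefSeq promoter table, the 10 with a broad site had a median of 11.5 CpG in the 250 bases before the TSS and the 9 without a site in the window a median of 5, compared with 6 over all 32851 promoters of the table. The ranges overlapped, with 2 to 35 CpG and 1 to 28 CpG. The RefSeq TSS lay 2563 bp from the 5′ end of the annotation in Inhbe, 609 bp in Bmp6 and 532 bp in Inha.

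The receptors and SMADs that carry these signals were less covered than the ligands, although the difference was not tested. Of 16 receptor genes, 6 had a site within 1 kb of a TSS and 3 had one of at least 2 kb, with a median covered share of 0.402%. The exception was Cfc1, a coreceptor of Nodal, with 82.8% covered, followed by the related Tdgf1 with 27.2% and the endothelial receptor gene Acvrl1 with 21.2%. Among 8 SMAD genes, none had a broad site, and the highest covered share was 1.82%, in Smad5. Of 7 target genes of the pathway, only Id2 had a site, which was 200 bp wide, while 48% of all genes had a site over the region.

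Further antagonists and the proteins that store latent TGF-beta had a similar mixture. Sites within 1 kb of a TSS were found in 4 of 11 other antagonist genes, and 2 had a broad one. Over all genes, 31.5% had a site within 1 kb of a TSS and 16.1% a broad one, so these antagonist counts were near the shares of all genes. Sost, which encodes sclerostin of bone, was covered to 100%, and Chrdl2, a relative of Chordin, to 89.9%. Of the 4 genes of the latent complex, 2 had a site near a TSS, and Ltbp4 had the highest share with 13.7%. Ligands of other developmental pathways were also covered. A broad site lay at the TSS of 14 of 19 Wnt genes and 12 of 22 Fgf genes, and the median covered share was 33.9% and 13.9%, respectively, compared with 14.5% for the 32 ligands of the TGF-beta superfamily. These lists were chosen by name and differ in gene length and in the number of neighbouring genes.

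**Figure D4:**
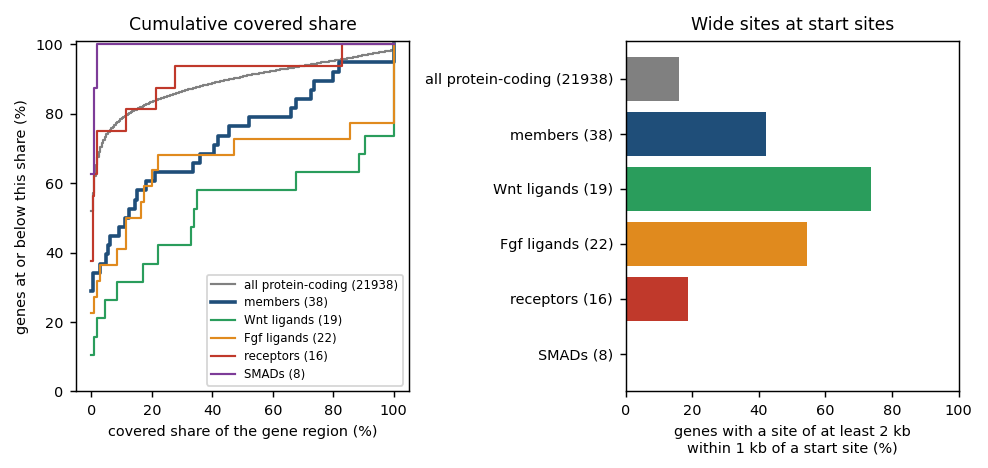
Left, cumulative share of genes (percent) by the covered share of the gene region (percent) for the members, other gene lists and all protein-coding genes, with the number of genes in brackets. Right, the percent of genes in each list with a site of at least 2 kb within 1 kb of a TSS, which was reached by 16 of 38 members, 14 of 19 Wnt, 12 of 22 Fgf, 3 of 16 receptor and 0 of 8 SMAD genes. The share of all protein-coding genes was 16.1%.

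The labelled cell type was checked with marker genes, for which a site at the promoter would go against use of the gene. A site lay within 1 kb of a TSS in 3 of 10 fibroblast markers (Col1a1, Vim and Prrx1), a share close to the 31.5% of all genes, and it contained the 5′ end of Col1a1 and Prrx1. These sites were at most 534 bp wide, and none of the 10 had a site of at least 2 kb. Of the other markers, 3 of 6 epithelial markers and 3 of 6 markers of blood and endothelium had a site of at least 2 kb at the TSS, for example Epcam, Esrp1 and Cd3e. Expression was not part of these data.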

How the data were processed

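According to the study's methods, the authors used Trim Galore for trimming, BWA for alignment to mm10 (GRCm38.p6), samtools for filtering, Picard for merging of replicates and MACS for broad peaks. Libraries were normalized by the authors to the lowest coverage, at a step not given in the sources used here. Versions, the threshold and the rule for joining peaks across samples are not given in the sources used here. The deposited list holds positions only, with no count, score or signal, so depth is unknown and no test between groups was made. Columns of values without a known sample numbered 0.

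Positions were read as counted from 0 and are printed counted from 1. GENCODE M21, an earlier release than that of the study, gave the gene regions. Covered share is the percent of a region's bases inside sites. Members and lists were chosen with earlier results of these data known. All members with a site of at least 2 kb over the region are given in full, the others by counts, ranges and distances, and at most 3 genes with the highest covered share are named per other list. Promoters shown were 3 with the highest and 3 with the lowest coverage among 20 of 24 members in the RefSeq table whose 250 bases held no annotated UTR, none from a chromosome whose sequence is not printed. Ties were ordered by the share of the region and the distance to a site.

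Python 3.11.15 with numpy 2.4.6, pandas 2.3.3, scipy 1.17.1, pysam 0.24.0 and matplotlib 3.10.9 was used. The functions were tested on simulated data against counting base by base. Alternatives joined neighbouring sites, left out narrow ones, or changed the overlap, the TSS window and the annotated starts.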

Additional observations from a re-analysis of the deposited data

How the results depend on the processing

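Joining sites closer than 1 kb moved the median widest site of the members from 1341 to 3312.5 bp, and joining those closer than 5 kb to 4287 bp. The latter setting also raised the number of subfamilies with at least 50% of the pooled regions covered from 3 to 5. Leaving out sites under 500 bp or under 1 kb lowered this number to 2, with Nodal and the Leftys at 47.2% and 37.8%, respectively. Gdf10 had the widest site only in the list as deposited. With sites closer than 1 kb joined, the widest stretch was at Bmp10 (69363 bp, against 29855 bp at Gdf10). With those closer than 5 kb joined, it was at Bmp2 (179683 bp, against 86796 bp at Gdf10). With 500 bp instead of 1 kb on either side of a TSS, the median widest site was 645 bp. Leaving out sites under 1 kb gave a median covered share of 1.65%. With 1 member of each neighbouring pair, which was added after seeing the data, the median covered share was 7.24% and the median widest site 611 bp. The counts of members with a site near a TSS (24), with a broad one (16) and with at least 50% covered (9) stayed within 1.5 times under every alternative run. Of 704 further values for subfamilies and single members, 91 moved by more than 1.5 times. No paired analysis was possible because values per library are not part of the list, and no replicate could be left out for the same reason. Depth is unknown and limits every statement on a missing site.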
